A study of Mus musculus with 250 samples.

Results

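The 10 genes described here are Apoa1, Apoa2, Apoa4, Apoa5, Apob, Apoc1, Apoc3, Apoe and Apom, which encode apolipoproteins, and Lcat, which encodes the plasma enzyme that esterifies cholesterol on lipoprotein particles. They were taken by name, as the genes to which 16 probe sets of a mouse whole-genome array carry that single symbol, and all 10 were measured among the 18194 genes of the series. The tumor-bearing mice were female FVB mice bitransgenic for MMTV-rtTA and TetO-NeuNT, in which the MMTV promoter, active in mammary epithelium, drives the rtTA factor that switches on NeuNT (Her2/Neu) under doxycycline, sampled when the breast tumor measured 1 cm. Their controls were littermates transgenic for TetO-NeuNT only, matched for age and cage. Both groups were given doxycycline (2 mg/mL) and sucrose (5%) in the water from week 8 of life, so the drug and the sugar are common to all mice. Total RNA of breast (in tumor-bearing mice the whole breast with its tumor), liver, spleen, blood cells without plasma and thymus was measured, with 25 tumor-bearing mice and 25 controls in each tissue, 250 arrays in all. Levels are log2 probe set intensities, changes are tumor-bearing minus matched control on that scale with their standard error over pairs, and calls are genes with a Benjamini-Hochberg adjusted p below 0.05 over all 18194 genes (limma with the pair as a block). "Rose" and "fell" are used of called genes only.

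Apolipoproteins are the protein shell of lipoproteins, the particles that carry cholesterol and triglyceride through the blood. The liver makes most of them. Apob is the non-exchangeable backbone of very low and low density particles, Apoa1 and Apoa2 are the main proteins of high density lipoprotein (HDL), and Lcat acts on HDL with Apoa1 as its cofactor. Apoc1, Apoc3 and Apoe move between particles: Apoc3 slows triglyceride clearance, Apoa5 promotes it through lipoprotein lipase, and Apoe is the ligand by which receptors take up remnants. Apoa4 is made mainly in intestine and, in mice, also in liver, and Apom carries sphingosine-1-phosphate on HDL. Apoe and Apoc1 are also made by macrophages and Apoe by many other cells outside the liver.

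Several of these genes are neighbours. In the RefSeq annotation Apoa1, Apoc3, Apoa4 and Apoa5 follow each other on chromosome 9, and Apoc1 lies next to Apoe on chromosome 7. Promoter sequence from RefSeq (build GRCm38.p6) was at hand for 8 of the 10 genes, and Apoc1 and Apoc3 were not among them. The 250 bases before the most upstream start are printed for Apoa1 and Apoa5, which share a cluster and were called in opposite directions in liver without the outlying arrays (not over all 25 pairs), and for Apoe, which was called as higher in breast and, without the outlying arrays, as lower in spleen. Capitals mark matches to TATAAA and to the nuclear receptor half-sites AGGTCA and GGGTCA, searched on both strands.
Apoa1 (chr9:46228380-46228629, + strand): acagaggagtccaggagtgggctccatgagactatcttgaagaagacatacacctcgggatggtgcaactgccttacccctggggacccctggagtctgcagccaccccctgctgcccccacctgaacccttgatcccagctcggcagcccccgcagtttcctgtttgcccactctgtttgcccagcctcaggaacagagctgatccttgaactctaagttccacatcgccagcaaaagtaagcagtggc
Apoa5 (chr9:46268358-46268607, + strand): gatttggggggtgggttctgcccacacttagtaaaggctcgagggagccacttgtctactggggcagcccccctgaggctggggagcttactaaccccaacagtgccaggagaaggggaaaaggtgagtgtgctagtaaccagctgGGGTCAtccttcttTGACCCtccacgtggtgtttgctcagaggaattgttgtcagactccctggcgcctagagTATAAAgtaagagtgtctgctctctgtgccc
Apoe (chr7:19699189-19699438, - strand): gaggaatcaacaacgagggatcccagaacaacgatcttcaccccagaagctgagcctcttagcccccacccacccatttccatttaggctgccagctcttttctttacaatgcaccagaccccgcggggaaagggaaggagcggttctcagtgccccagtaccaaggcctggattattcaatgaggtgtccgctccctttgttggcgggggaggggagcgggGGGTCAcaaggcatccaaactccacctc
Apoa5 held GGGTCA 104 bases before its start, the same motif on the opposite strand at 90 bases, and TATAAA at 31 bases. Apoe held GGGTCA 28 bases before its start, and Apoa1 held none of the 3 motifs in this window. Of the others, Apom held GGGTCA at 156 and 32 bases, Apoa2 AGGTCA on the opposite strand at 238 bases and Apob TATAAA at 60 bases, while Apoa4 and Lcat held none. Of 32817 promoters of this length in the table, 12.4% held TATAAA, 14% AGGTCA and 11.6% GGGTCA on either strand. These matches are descriptions of the letters and not of binding.

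Some arrays stood apart from the rest of their group, and results that rest on them are given with and without them. An array was taken as outlying when its median correlation with the other arrays of its tissue and group lay more than 3 interquartile ranges below the lower quartile. This held for 3 breast, 5 liver, 4 spleen, 2 blood and 2 thymus arrays, and leaving out their pairs kept 22, 20, 22, 23 and 23 pairs. The liver control of pair 9 correlated at 0.336 with the other control livers, against 0.988 to 0.994 for liver arrays that did not stand apart. The spleen array of the tumor-bearing mouse of pair 15 correlated more with the median thymus (0.98) than with the median spleen (0.914), which goes against its label. The control spleens of pairs 15 and 20 correlated more with breast and liver than with spleen, and the control thymus of pair 4 more with the median breast (0.926) than with the median thymus (0.885). The mean level of 10 hepatocyte genes had a median of 13.94 in tumor-bearing livers (lowest 13.47) and 13.90 in control livers (lowest 9.99). That of 6 T cell genes had a median of 12.56 in tumor-bearing thymus (lowest 11.27) and 12.69 in control thymus (lowest 7.33). In these bulk samples, fewer cells of a type and less RNA per cell cannot be told apart.

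In breast, 5 of the 10 genes fell and 1 rose in tumor-bearing mice: Apoc1, Apoc3, Apoa2, Lcat and Apob were lower and Apoe was higher. The background in this comparison was high, since 62.3% of all genes were called, 30% as higher and 32.3% as lower, so 6 calls among 10 genes is near the share of all genes. The median change of the 10 was -0.28, against -0.03 over all genes.

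Apoc1, a small exchangeable apolipoprotein that inhibits lipoprotein uptake, had the largest change of the 10 in breast. Its level ran from 8.39 to 11.12 with a median of 9.70 in tumor-bearing breasts, against 10.03 to 11.92 with a median of 11.26 in control breasts. It was lower in the tumor-bearing mouse of all 25 pairs, and 15 of the 25 tumor-bearing arrays lay under the lowest control. The change was -1.39 ± 0.19 (adjusted p = 6e-07), 2.63-fold lower. In the 10 pairs with earlier sample numbers it was -1.31 (adjusted p = 0.00734) and in the 15 with later numbers -1.45 (adjusted p = 7.53e-05).

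Apoe, the receptor ligand encoded beside Apoc1, went the other way. It ran from 12.39 to 13.32 with a median of 12.79 in tumor-bearing breasts, against 10.59 to 13.56 with a median of 12.50 in control breasts. The groups overlapped across the whole tumor-bearing range, and the controls had a long lower tail, with 3 arrays between 10.59 and 11.11. The change was 0.41 ± 0.14 (adjusted p = 0.012), 1.33-fold higher, with 18 of 25 pairs higher. In pairs with earlier sample numbers the change was 0.25 (adjusted p = 0.408) and in those with later numbers 0.51 (adjusted p = 0.0146).

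Apoc3, the inhibitor of triglyceride clearance, was dim in both groups and mostly separated them. It lay between 3.86 and 4.87 with a median of 4.23 in tumor-bearing breasts, against 4.47 to 8.04 with a median of 4.85 in control breasts, and 22 of 25 tumor-bearing arrays were under the lowest control. The change was -0.80 ± 0.15 (adjusted p = 5.33e-05), 1.74-fold lower, and it was -0.68 without pair 17. Lcat, the HDL cholesterol esterifying enzyme, had a median of 4.90 in tumor-bearing breasts (4.56 to 5.22) and of 5.14 in control breasts (4.85 to 5.68). It was lower in 23 of 25 pairs, with a change of -0.32 ± 0.05 (adjusted p = 4.61e-06), 1.25-fold. These levels of both genes lie near the floor of 3.5 set on the table, where an array measures with little signal.

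Of the HDL proteins, Apoa2 fell by 0.61 ± 0.21 (adjusted p = 0.0124) and was lower in 20 of 25 pairs. In the earlier sample numbers alone it was not called (-0.35, adjusted p = 0.0583), and in the later ones it was (-0.78, adjusted p = 0.046). Its median was 4.48 in tumor-bearing breasts (4.11 to 5.67) and 4.81 in control breasts (4.24 to 9.56). The medians of Apoa1 were 4.04 and 4.28 in the same order, so those of both genes lie near the floor of 3.5 as well. Apoa1 changed by -0.51 ± 0.23 and missed the threshold (adjusted p = 0.0604), and was called in the earlier sample numbers alone (-0.45, adjusted p = 0.00511). The highest control of both was the same mouse, the control of pair 17, at 9.73 for Apoa1 and 9.56 for Apoa2. Without this pair the changes were -0.30 for Apoa1, then called (adjusted p = 0.0367, and 0.0415 without pair 25), and -0.42 for Apoa2 (adjusted p = 0.00152). That array also had the highest breast level of Alb, the hepatocyte product albumin, at 12.83.

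Apob, the backbone of very low density particles, was near background, with a median of 4.62 in tumor-bearing breasts (4.0 to 4.97) and 4.78 in control breasts (4.16 to 6.21). It fell by 0.25 ± 0.07 (adjusted p = 0.00285, lower in 18 of 25 pairs), and in the earlier sample numbers alone it was not called (-0.17, adjusted p = 0.175). A second probe set for Apob gave -0.23 ± 0.11 (adjusted p = 0.072). Apoa4 (-0.07 ± 0.06), Apoa5 (-0.18 ± 0.10) and Apom (0.00 ± 0.06) did not pass the test. For Apom, the carrier of sphingosine-1-phosphate, the probe sets disagreed: the one with the lower mean over all arrays gave -0.30 ± 0.12 (adjusted p = 0.0281).

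**Figure D1:**
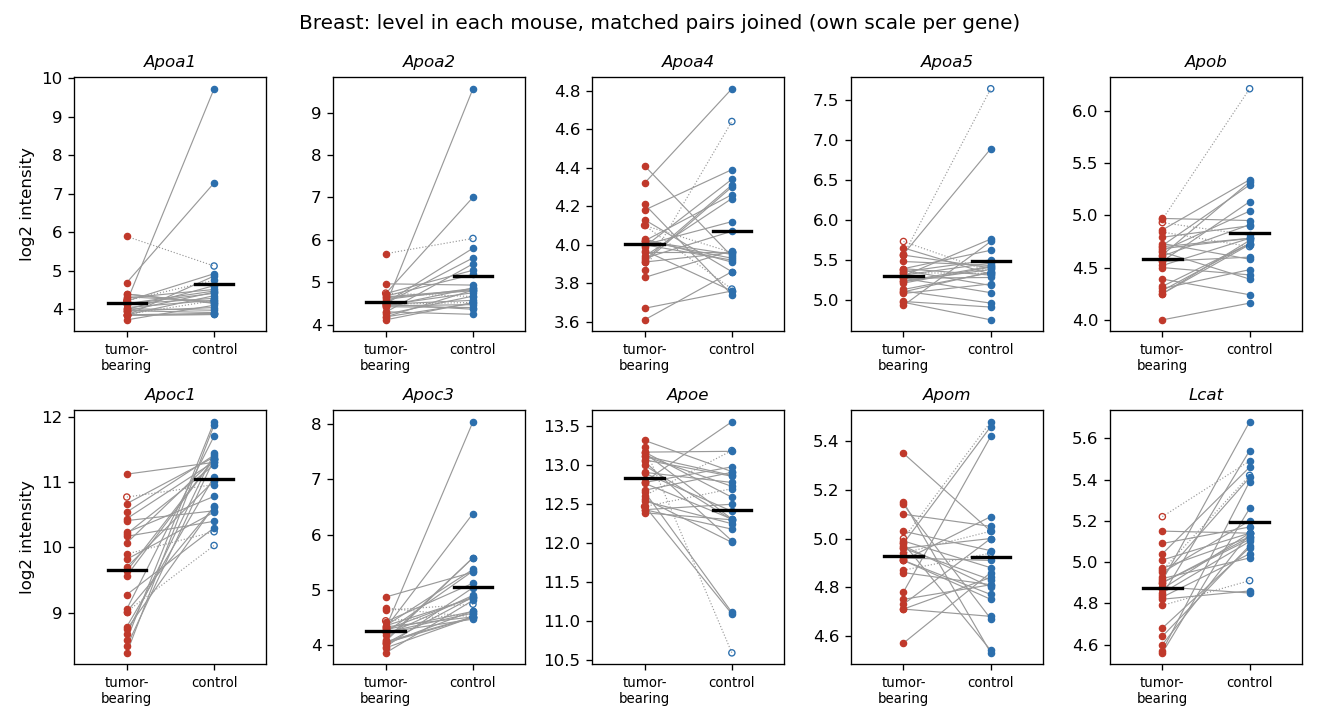
Level (log2 intensity) of each of the 10 genes in breast, with tumor-bearing mice left and controls right in each panel, matched mice joined by lines, black bars for group means, and open points with dotted lines for outlying arrays and their pairs; each gene has its own scale. Apoc1 is lower in the tumor-bearing mouse of all 25 pairs, Apoe runs the other way in 18 of them, and 1 control array lies far above the rest for Apoa1, Apoa2 and Apoc3.

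The breast samples also differed in the cells they hold and in a measure of RNA quality, and the part of either in these changes was not tested. All 8 measured adipocyte markers fell, and their mean level ran from 6.25 to 10.54 (median 7.68) in tumor-bearing breasts and from 9.02 to 11.48 (median 10.93) in control breasts. Of 6 luminal epithelium markers 5 rose, with medians of 11.78 and 9.96 for tumor-bearing and control breasts. Of 12 macrophage markers 6 rose and 2 fell (mean level 7.67 to 8.57 in tumor-bearing and 7.11 to 9.15 in control breasts), and without the outlying arrays 4 rose and 3 fell. The complement gene C1qa changed by 1.8 ± 0.27 (adjusted p = 2.13e-06), Trem2, a receptor of lipid-laden macrophages, by 0.97 ± 0.12 (adjusted p = 5.09e-08) and the scavenger receptor gene Marco by -2.40 ± 0.54 (adjusted p = 0.000386). All 6 skeletal muscle markers, all 6 T cell markers and all 5 B cell markers fell. Of 10 hepatocyte markers 3 fell and none rose, and Alb had a median of 5.47 (4.98 to 9.59) in tumor-bearing and 8.23 (6.27 to 12.83) in control breasts. No marker of these lists lay at the floor in most breast arrays. The log2 ratio of 3 prime to 5 prime signal of Gapdh, which rises as RNA is degraded or truncated, was 0.03 ± 0.45 in tumor-bearing and 0.79 ± 0.78 in control breasts (SD, n = 25 each), lower in 21 of 25 tumor-bearing mice.

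Several other lipoprotein genes in breast changed by more than any of the 10. Of 14 measured genes of lipoprotein assembly, lipases and remodelling, 11 fell and 2 rose, with a median change of -1.04. They included Angptl8, a feeding-regulated inhibitor of lipoprotein lipase (-3.05 ± 0.20, adjusted p = 1.64e-11), Pon1, an HDL-bound esterase (-2.68 ± 0.23, adjusted p = 2.15e-10), and Pon3, its paralog (-1.76 ± 0.17, adjusted p = 2.06e-09). Of 12 receptor and uptake genes 8 fell and 2 rose. The fatty acid and lipoprotein receptor Cd36 changed by -3.54 ± 0.33 (adjusted p = 8.24e-10), the sorting receptor Sort1 by -0.95 ± 0.09 (adjusted p = 2.12e-09), and the lipolysis-stimulated receptor Lsr by 2.30 ± 0.22 (adjusted p = 8.69e-10).

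Of 10 apolipoprotein genes outside the set, 3 fell and 2 rose in breast. Apol6 changed by -2.49 ± 0.20 (adjusted p = 8.89e-11) and Apool, a mitochondrial relative, by -0.87 ± 0.09 (adjusted p = 2.74e-09), while Apoc2, the activator of lipoprotein lipase, rose by 0.73 ± 0.10 (adjusted p = 2.62e-07). Of 15 transcription regulators of apolipoprotein genes 9 fell and 2 rose. Among them Nr1h3, the oxysterol receptor that activates Apoe and Apoc1 in macrophages, was lower in all 25 pairs (-1.97 ± 0.14, adjusted p = 2.53e-11). Cebpa (-2.38 ± 0.20, adjusted p = 2.05e-10) and the fatty acid receptor gene Ppara (-2.42 ± 0.29, adjusted p = 4.87e-08) fell as well. Of the 4 serum amyloid A genes Saa3, the macrophage and epithelial form, rose by 2.76 ± 0.27 (adjusted p = 1.5e-09).

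In liver, the source of most circulating apolipoprotein, none of the 10 genes was called over all 25 pairs, and 6 were called without the outlying arrays, all by small amounts. In those 20 pairs Apoa1 and Apom rose and Apoa2, Apoa5, Apoc3 and Apoe fell, by 0.05 to 0.20 on the log2 scale. Over 25 pairs 10.2% of all genes were called and limma at an unadjusted p under 0.05 gave 1 of the 10. Without the outlying arrays 37.5% were called, 18.6% as higher and 18.9% as lower. The median change of the 10 there was -0.04, against -0.01 over all genes.

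Few arrays separate these fits. The control of pair 9 had 5.52 for Apoa4, 6.40 for Apoa5, 6.07 for Apom and 7.99 for Lcat. Its Apoa1 (14.20) and Apoa2 (14.45) were less far below the other livers. The lowest controls of the 20 pairs were 14.53 and 14.93 for these genes. Pair 9 alone therefore showed a change of 7.27 for Apoa5, against 0.17 as the highest change in the 20 pairs. Without pair 9 alone, 2 genes were called: Apoa5 with -0.26 ± 0.06 (adjusted p = 0.0014) and Apoc3 with -0.17 ± 0.04 (adjusted p = 0.00156), and 18.6% of all genes. The sign of Apoa5 turned with it, since the change over all 25 pairs was 0.04 ± 0.29.

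The cluster of chromosome 9 was split. Apoc3 ran from 14.22 to 14.38 in tumor-bearing livers, against 14.35 to 14.52 in control livers, over the 20 pairs. It was lower in all 20, with a change of -0.14 ± 0.02 (adjusted p = 1.43e-07), 1.10-fold. Apoa5, the promoter of triglyceride clearance, had a median of 13.61 in tumor-bearing livers (13.31 to 13.91) and of 13.83 in control livers (13.69 to 14.01). It was lower in 17 of 20 pairs, with a change of -0.20 ± 0.04 (adjusted p = 9.24e-05), 1.15-fold, the largest change of the 10 in liver. Apoa1, at the end of the cluster, was higher in 19 of 20 pairs, with a median of 14.82 in tumor-bearing livers (14.71 to 14.88) and 14.72 in control livers (14.53 to 14.78). Its change was 0.10 ± 0.02 (adjusted p = 3.71e-05), 1.08-fold, and its 3 other probe sets gave 0.13 ± 0.02, 0.09 ± 0.02 and 0.12 ± 0.02. Apoa4, in the middle of the cluster, varied from 11.62 to 12.48 in tumor-bearing and from 11.69 to 12.64 in control livers and was not called (-0.09 ± 0.07, adjusted p = 0.337).

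Apoa2, the other HDL protein, fell while Apoa1 rose. It had a median of 14.89 in tumor-bearing livers (14.84 to 14.95), against 14.97 in control livers (14.93 to 15.02), and was lower in all 20 pairs. The change was -0.08 ± 0.01 (adjusted p = 2.99e-05), 1.06-fold. Apom was higher in 18 of 20 pairs, by 0.10 ± 0.02 (adjusted p = 0.000885). Its second probe set gave 0.06 ± 0.03 (adjusted p = 0.114). Apoe was lower in 16 of 20 pairs, with a change of -0.05 ± 0.02 (adjusted p = 0.0253), with ranges of 14.49 to 14.67 in tumor-bearing and 14.5 to 14.70 in control livers.

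Apob, Apoc1 and Lcat were not called in liver under either fit. In the 20 pairs Apob changed by 0.11 ± 0.08 and Apoc1 by -0.03 ± 0.02. Lcat changed by 0.03 ± 0.02, with 15 of 20 pairs higher. Apoa1 and Apoa2 lay near the top of the scale, where the highest intensity in the whole table, 47198, limits what a level can show. In the 10 pairs with earlier sample numbers, which hold pair 9, none of the 10 genes was called. Of all 18194 genes 85 were called as higher there and 10 as lower. In the 15 pairs with later numbers, where 2209 of all genes were called as higher and 2120 as lower, 3 of the 10 were called. They were Apoa5 (-0.30, adjusted p = 0.000591), Apoc3 (-0.17, adjusted p = 0.00127) and Apoa2 (-0.10, adjusted p = 0.0443).

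**Figure D2:**
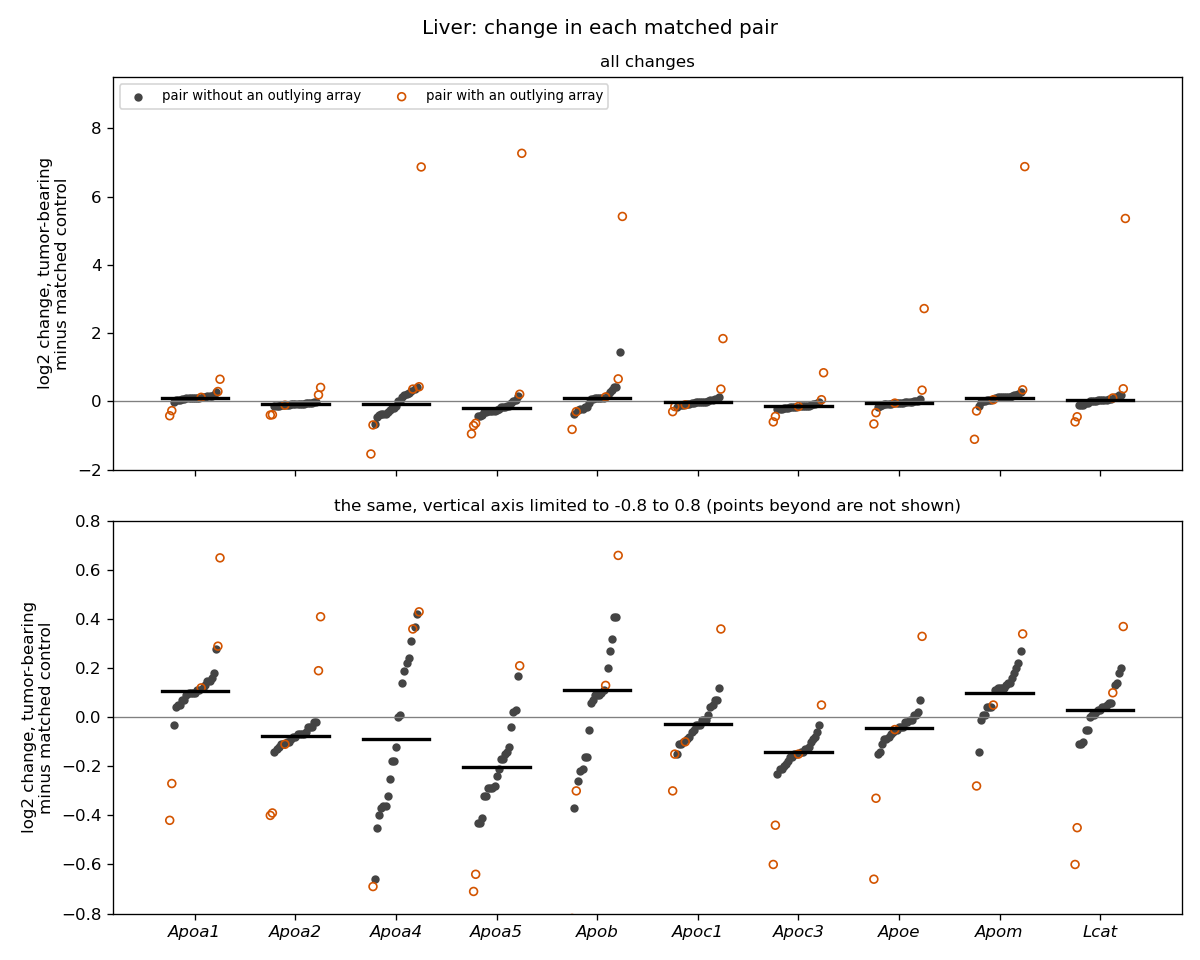
Change in each of the 25 liver pairs (tumor-bearing minus matched control, log2) for the 10 genes, the upper panel in full and the lower with the axis limited to -0.8 to 0.8; filled points are pairs without and open points pairs with an outlying array, and bars are means over the filled points. Apoc3 and Apoa2 lie under 0 in all 20 filled pairs and Apoa1 over 0 in 19, while pair 9 reaches 7.27 for Apoa5.

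The liver pairs were also described by which genes moved most like each member over the 20 pairs, as the Spearman correlation of within-pair changes, taking the 3 highest of 18194 genes. For Apoa2 these were Dpys (0.80), Eci2 (0.80) and Ephx2 (0.77), which encode enzymes of pyrimidine breakdown, fatty acid oxidation and epoxide hydrolysis. For Apoa5 they were Pcsk4 (0.83), Tef, a circadian transcription factor (0.82), and Sirt3, a mitochondrial deacetylase (0.80). For Apoa1 they were Plbd2 (0.81), Dao (0.78) and Slc25a33 (0.77). For Apoc3 they were Tmcc2 (0.74), Ghitm (0.73) and Egfl6 (0.71), and for Apom Afg3l1 (0.81), Slc22a8 (0.79) and Parpbp (0.76). Those of Apoa4 were Gm32219 (0.79), 2810408A11Rik (0.78) and Gm10791 (0.76), and those of Apob Serpinf1 (0.83), Aph1a (0.77) and Clec2d (0.76). Apoc1 had Gm7008 (0.81), Xist (0.78) and Ptprg (0.76), and Apoe had Cd3eap (0.77), 4930429F11Rik (0.77) and Stmnd1 (0.75). Lcat had Rslcan18 (0.82), Pigr (0.82) and Adam24 (0.76). Among the members themselves the highest values were 0.60 between Apoc1 and Apoc3 and 0.53 between Apoa1 and Apoe, and Apoa1 with Apoa2 gave -0.22. All these values share the arrays of 20 pairs and the best of many genes will correlate highly.

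The acute phase was marked in these livers, and it bears on HDL because serum amyloid A proteins are apolipoproteins of the same particle. All 4 serum amyloid A genes rose over 25 pairs: Saa2 by 3.54 ± 0.23 (adjusted p = 4.27e-12), Saa1 by 2.98 ± 0.21 (adjusted p = 1.83e-11) and Saa4, the constitutive form, by 0.79 ± 0.18 (adjusted p = 0.00244). The mean change of Saa1 and Saa2 ranged from 0.51 to 6.37 among pairs, with a median of 3.51, and was above 0 in all 25. Whether a member changed more in pairs with a larger amyloid change was tested for the 10 genes, with two-sided permutation tests of 100000 resamples adjusted over the 10. Over 25 pairs Pearson's r was 0.48 to 0.66 and called for 9 genes (adjusted p 0.0083 to 0.0271) and missed for Apoc1 (r = 0.51, adjusted p = 0.0528), while Spearman's rho was -0.10 to 0.26 and called for none (adjusted p = 0.988). The Pearson values rest on few pairs. Without the 2 pairs farthest from the median amyloid change r was -0.45 to 0.12 with no call (adjusted p 0.193 to 0.608), and without the outlying arrays it was -0.30 to 0.30 with no call (adjusted p 0.701 to 0.76). In the earlier sample numbers r was 0.64 to 0.79 over 10 pairs, which hold pair 9, with 8 genes called, and in the later numbers -0.47 to 0.00 over 15 pairs with no call. Over 25 pairs the neutrophil markers rose in all 11 of 11 genes, with a mean level of 7.17 to 10.98 in tumor-bearing and 5.57 to 6.41 in control livers, and their part in the members' changes was not tested.

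Several other lipoprotein genes of the liver were called over all 25 pairs, where none of the 10 members and 10.2% of all genes were. Of 12 receptor and uptake genes 4 rose and 1 fell: the very low density lipoprotein receptor gene Vldlr fell by 1.5 ± 0.25 (adjusted p = 7.86e-05), the scavenger receptor gene Stab2 rose by 1.08 ± 0.18 (adjusted p = 9.66e-05) and Sort1 rose by 0.42 ± 0.08 (adjusted p = 0.000368). Of 14 assembly and lipase genes 2 rose and 1 fell. Lpl, lipoprotein lipase, rose by 1.07 ± 0.18 (adjusted p = 8.64e-05), Abcg1, a cholesterol exporter, rose by 0.38 ± 0.08 (adjusted p = 0.00224) and Lipg, endothelial lipase, fell by 1.10 ± 0.20 (adjusted p = 0.000235). Apon was the 1 other apolipoprotein gene of 10 to be called over 25 pairs (0.76 ± 0.23, adjusted p = 0.0317), and Foxa3, a hepatocyte forkhead factor, the 1 regulator of 15 (0.63 ± 0.11, adjusted p = 0.000186). Without the outlying arrays, when 37.5% of all genes were called, 4 of the other apolipoprotein genes rose and 2 fell. Of the regulators 3 rose and 5 fell in that fit, of the receptor and uptake genes 7 rose and 3 fell, and of the assembly and lipase genes 4 rose and 6 fell. Of 10 hepatocyte markers none was called over 25 pairs, and 4 rose and 2 fell without the outlying arrays. Of 12 macrophage markers 1 rose over 25 pairs and 8 rose without the outlying arrays, with a mean level of 9.15 to 10.34 in tumor-bearing and 5.99 to 10.40 in control livers. The part of these markers in the members' changes was not tested.

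In spleen, 1 of the 10 genes was called over all pairs, Apoa4, which fell by 0.14 ± 0.05 (adjusted p = 0.0357), against 40.7% of all genes, 22.4% as higher and 18.3% as lower. It was dim, with a median of 4.80 in tumor-bearing spleens (4.35 to 5.29) and 4.89 in control spleens (4.64 to 5.63). It was lower in 18 of 25 pairs, and it stayed called in 17 of the 25 fits that left out 1 pair, and missed the threshold without pair 5, 6, 7, 10, 13, 21, 23 or 24, with an adjusted p of up to 0.0628 (pair 21). It was called neither in the earlier (-0.14, adjusted p = 0.09) nor in the later sample numbers alone (-0.14, adjusted p = 0.221). Its second probe set gave -0.23 ± 0.04 (adjusted p = 7.41e-06).

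The call of Apoe in spleen depended on pairs 15 and 20, whose control arrays correlated poorly with spleen. Over 25 pairs it ran from 11.36 to 12.78 with a median of 11.90 in tumor-bearing spleens, against 10.45 to 12.50 with a median of 12.16 in control spleens, and was lower in 20 pairs. The change was -0.16 ± 0.10 (adjusted p = 0.229), with -0.21 in the earlier sample numbers alone (adjusted p = 0.0177) and -0.12 in the later ones (adjusted p = 0.625). Without pairs 15 and 20, when 56.2% of all genes were called, it was -0.28 ± 0.06 (adjusted p = 0.000222), and without all outlying arrays -0.30 ± 0.06 (adjusted p = 0.000112), with 20 of 22 pairs lower, 1.23-fold. Without pair 20 alone it was also called, with -0.22 (adjusted p = 0.0211), and Apoa2, at -0.42 over 25 pairs (adjusted p = 0.0566), was called without pair 15 (-0.26, adjusted p = 0.0294). In the 22 pairs the tumor-bearing spleens ran from 11.36 to 12.17 and the controls from 11.89 to 12.50.

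Without the outlying arrays, 55.3% of all genes were called in spleen, 28.9% as higher and 26.4% as lower, and 4 of the 10: Apoe, Apoa2 (-0.26 ± 0.10, adjusted p = 0.039), Apoa4 (-0.12 ± 0.04, adjusted p = 0.0198) and Lcat (0.10 ± 0.04, adjusted p = 0.0248). Over the same 22 pairs Apoc1, Apoc3, Apob, Apoa5, Apom and Apoa1 changed by -0.01 to 0.09 and were not called. Of 10 hepatocyte markers 3 fell over 25 pairs, with a mean level of 4.95 to 5.50 in tumor-bearing and 4.96 to 8.21 in control spleens, and their part in the change of Apoa2 was not tested. The highest values of the set in spleen were in arrays that stood apart. The control of pair 15 had 9.93 for Apom, 9.37 for Apoc3 and 11.57 for Alb, and the control of pair 20 had 10.04 for Apom and 9.01 for Apob. The tumor-bearing array of pair 15 had 12.52 for Apoc1.

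**Figure D3:**
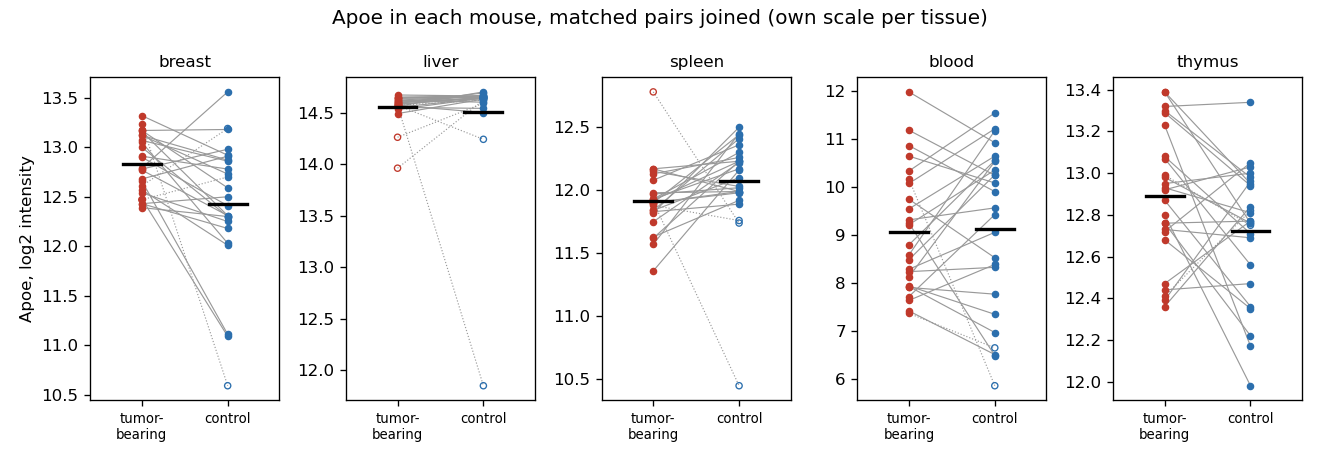
Apoe level (log2 intensity) in each mouse of the 5 tissues, with tumor-bearing mice left and controls right, matched mice joined, black bars for group means over all 25 arrays, and open points with dotted lines for outlying arrays and their pairs; each tissue has its own scale. Tumor-bearing mice were higher in 18 of 25 pairs in breast and lower in 20 of 25 in spleen, and single control arrays lie far below the rest in liver and spleen.

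Cell markers and a measure of RNA quality also differed between the groups in spleen, and their part in the change of Apoe was not tested. Over 25 pairs 2 of 12 macrophage markers rose and 2 fell, with a mean level of 8.57 to 9.79 in tumor-bearing and 7.56 to 9.98 in control spleens, and without the outlying arrays 2 rose and 7 fell. All 11 neutrophil markers rose, with medians of 12.92 in tumor-bearing and 10.42 in control spleens. Without the outlying arrays all 6 T cell and all 5 B cell markers fell and all 5 erythroid markers rose, and over 25 pairs 1, 2 and 4 of them were called in these directions. The Gapdh 3 prime to 5 prime log2 ratio was -0.18 ± 0.19 in tumor-bearing and -0.30 ± 0.12 in control spleens (SD, n = 25 each), higher in 17 of 25 tumor-bearing mice. The same ratio of actin differed less, at 0.29 ± 0.15 and 0.25 ± 0.14, and was higher in 15 of 25. Of the lipid genes, Nr1h3 was lower in all 25 pairs (-0.72 ± 0.06, adjusted p = 1.98e-09), and the cholesterol exporter Abca1 fell by 0.40 ± 0.06 (adjusted p = 9.84e-06). Lipg rose by 2.55 ± 0.30 (adjusted p = 1.29e-07) and was higher in all 25 pairs, and Angptl4, an inhibitor of lipoprotein lipase, rose by 0.65 ± 0.10 (adjusted p = 3.66e-06). Of the 10 other apolipoprotein genes 2 rose and 2 fell: Apoc2 rose by 1.08 ± 0.10 (adjusted p = 4.36e-09), Apol8 by 1.82 ± 0.27 (adjusted p = 4.06e-06), and clusterin, Clu, fell by 0.34 ± 0.05 (adjusted p = 1.91e-06). Of 12 receptor genes 5 rose and 1 fell, with Sort1 at 0.70 ± 0.09 (adjusted p = 3.32e-07), Lrp8, a receptor of Apoe, at 0.47 ± 0.06 (adjusted p = 1.01e-06) and Stab1 at 0.51 ± 0.07 (adjusted p = 1.07e-06). These lipid gene values are over 25 pairs. Without the outlying arrays 4 of the other apolipoprotein genes rose and 2 fell, and 7 receptor genes rose and 1 fell.

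In blood cells and in thymus none of the 10 genes was called, where 12.9% and 0.011% of all genes were. At an unadjusted p under 0.05 limma gave 0 of the 10 in blood and 1 in thymus. Few arrays set the mean changes there. In blood Apoa2 had a median of 4.82 in tumor-bearing mice (4.05 to 10.43) and of 4.80 in controls (3.88 to 12.24). Its mean change was -0.85 ± 0.65 and its median change over pairs -0.06. Pair 18 gave -7.70 and pair 4 gave 6.11. Apoa1, Apoa5, Apoc1 and Apoc3 had their lowest change in pair 18 and their highest in pair 4 as well.

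The 6 blood arrays with the highest Apoa2, 1 of a tumor-bearing mouse and 5 of controls, lay at 10.43 or above, with the next at 8.39, and they were also the 6 with the highest Alb. In the highest of them, the control of pair 18, Alb was 13.66, the thyroid hormone carrier Ttr 12.06, and the hepatocyte glycoprotein Ahsg 9.34, against medians over all blood arrays of 6.39, 6.85 and 4.93. The mean level of the 10 hepatocyte markers ran from 4.51 to 8.25 in tumor-bearing and from 4.45 to 9.78 in control blood, 1 of the 10 fell (Tdo2, -0.55 ± 0.18, adjusted p = 0.0383), and none lay at the floor in most arrays. Their part in these levels was not tested.

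In thymus the 6 arrays with the highest Apoa2, 4 of tumor-bearing mice and 2 of controls, were again the 6 with the highest Alb. In the tumor-bearing mouse of pair 7 Apoa2 was 11.58, Apoa1 10.95, Apoc3 10.74 and Alb 14.03, against medians over all thymus arrays of 6.45, 6.08, 6.04 and 7.44. Pair 7 had the highest change of 9 of the 10 genes, all but Apoe. For Apoc1 the control of pair 7 was the lowest array, at 7.28. Apoc1 and Apoe were bright in most thymus arrays. Apoc1 had a median of 11.07 in tumor-bearing (10.16 to 12.24) and 11.02 in control thymus (7.28 to 11.71), with a change of 0.46 ± 0.25, and Apoe had 12.92 (12.36 to 13.39) and 12.77 (11.98 to 13.34) in the same order, with a change of 0.17 ± 0.08 (adjusted p = 0.995 for both). In blood Apoe varied widely, from 7.36 to 11.98 in tumor-bearing mice and from 5.85 to 11.54 in controls (change -0.06 ± 0.31).

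**Figure D4:**
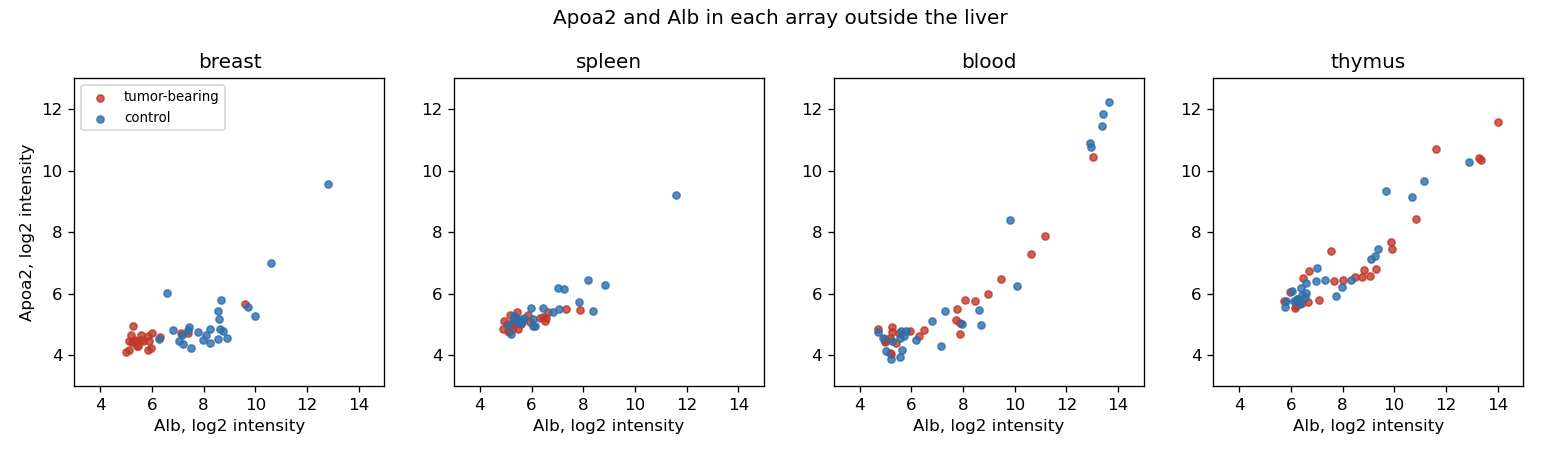
Apoa2 level against Alb level (both log2 intensity) in each of the 50 arrays of breast, spleen, blood and thymus, with tumor-bearing mice in red and controls in blue. In blood and thymus the 6 arrays with the highest Apoa2 are those with the highest Alb, and in breast and spleen 1 control array lies far above the others in both.

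Some other lipoprotein genes were called in blood. Apoc2 rose by 0.92 ± 0.24 (adjusted p = 0.00897), as the 1 call among the 10 other apolipoproteins, Lipg by 1.04 ± 0.22 (adjusted p = 0.00133) and Cebpb by 1.06 ± 0.25 (adjusted p = 0.00424). Of 12 receptor genes 4 rose, among them Sorl1, a sorting receptor that binds Apoe, by 2.08 ± 0.26 (adjusted p = 1.49e-06) in all 25 pairs. In thymus none of these lipoprotein genes was called.

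Whether the change of a gene differed between liver, spleen, blood and thymus was tested for all genes, and breast was kept out because the tumor is part of the tumor-bearing breast. None of the 10 was called, while 29.1% of all genes were. At an unadjusted p under 0.05 limma gave 1 of the 10. Apoc1 came closest (adjusted p = 0.0569), with a liver change of 0.04 ± 0.08, a spleen change of 0.10 ± 0.10, a blood change of -0.73 ± 0.44 and a thymus change of 0.46 ± 0.25. It was called when mice were linked across tissues by the order of their sample numbers (adjusted p = 0.0476), a link that the labels do not state, and not without the outlying arrays (adjusted p = 0.163), when 50.6% of all genes were. With breast as the fifth tissue, Apoc1 (adjusted p = 1.17e-05) and Lcat (adjusted p = 0.0347) differed between tissues, as did 59.2% of all genes. Apoe, called in opposite directions in breast over all pairs and in spleen without the outlying arrays, gave an adjusted p of 0.245 there. That test used all pairs, over which the spleen change was -0.16 and not called. It was not run without the outlying arrays.

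**Figure D5:**
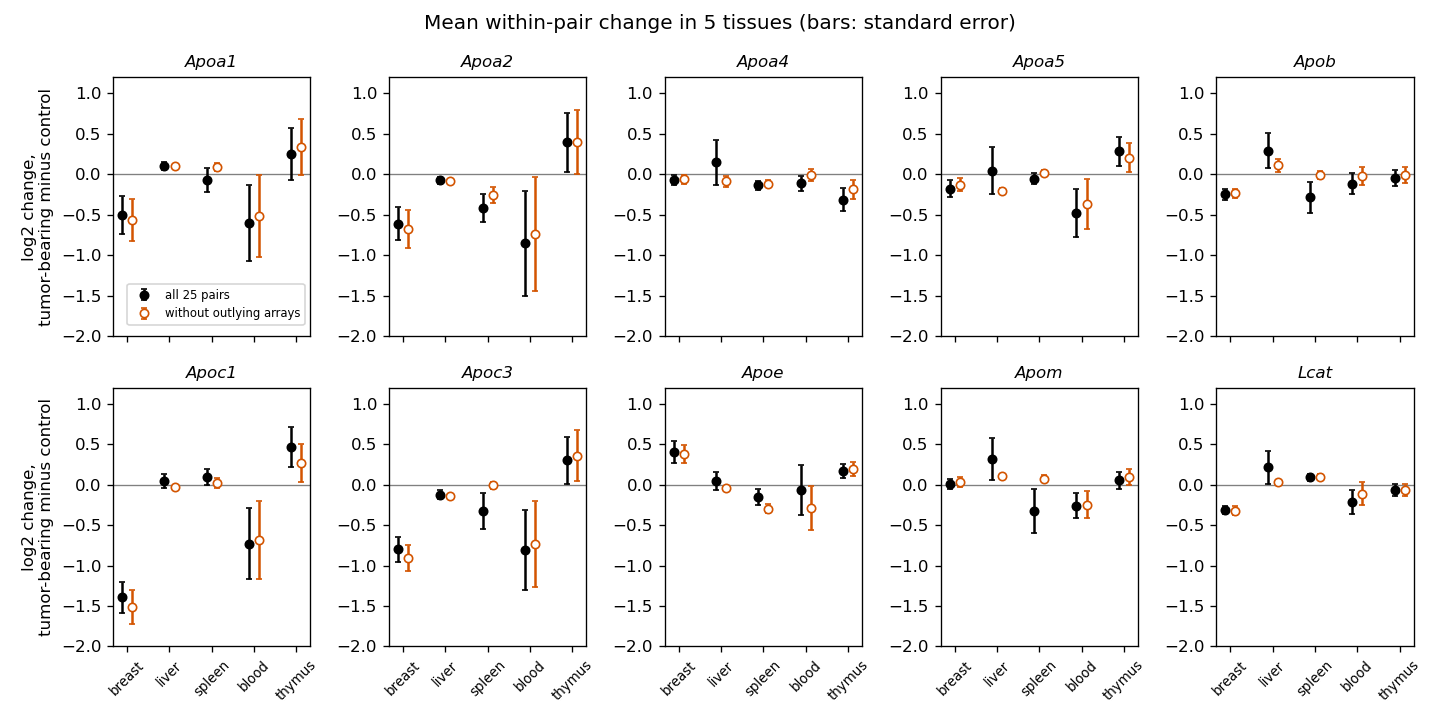
Mean within-pair change (tumor-bearing minus control, log2) of each gene in the 5 tissues, with standard errors over pairs; filled points use all 25 pairs and open points leave out pairs with outlying arrays. Over all 25 pairs Apoc1 in breast (-1.39) is the largest change and the error reaches 0.65 for Apoa2 in blood (-1.51 and 0.702 without outlying arrays), and the filled and open points of Apom, Apob and Apoc3 part most in spleen.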

How the data were processed

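Total RNA of 5 tissues was measured on Affymetrix mouse genome arrays, with 25 arrays for each tissue and group. The authors deposited 1 table of linear probe set intensity (5.17 to 47198) for 45101 probe sets and 250 arrays; how the probes were summarised and scaled is not given in the sources used here, and no genome build is named. Intensities under the 5th percentile of the table (11.3) were raised to that value before taking log2. A single symbol was carried by 34958 probe sets, 932 had several and 9211 none, and symbols of 34754 were updated through their Entrez number. Each of 18194 genes was read from 1 probe set, the brightest on average across the 250 arrays. Groups were compared only within a gene and tissue.

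Each tissue was fitted alone in limma 3.58.1 (R 4.3.3) with the pair as a block, with p-values adjusted over all genes by Benjamini-Hochberg. The pairing is that of the labels (a matched littermate); the median correlation of deviations within matched pairs was 0.08 (breast), 0.31 (liver), 0.15 (spleen), 0.22 (blood) and 0.25 (thymus), against -0.02 to 0.01 for other pairings. Differences between tissues were tested by an F-test on within-pair changes. Tables and permutation tests used Python 3.11.15, pandas 2.3.3 and scipy 1.17.1, and figures matplotlib 3.10.9. Tested on simulated data over 18194 genes, the fit recovered 70.1% (breast), 52.2% (liver), 91% (spleen), 55.2% (blood) and 67.2% (thymus) of changes of 0.5. Of changes of 0.25 it recovered 23.9% (breast), 4.5% (liver), 47.8% (spleen), 13.4% (blood) and 17.9% (thymus). Changes under 0.25, such as those called in liver without the outlying arrays, were not simulated. Among the calls in these simulations, 3.68% to 10.58% were false. The number of arrays limits the precision, and intensities carry no read depth.

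The members and gene lists were chosen with earlier results of these data known. The text names all 10 members, up to 3 called genes of each list and tissue with the smallest p, and the 3 genes most like a member in liver; Marco, the markers named beside the highest Apoa2 arrays and the other array values were chosen after the data were seen. Alternatives changed the floor, the gene filter, the normalization, the probe set rule, the block, the arrays kept, the array weights and the sample numbers used.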

Additional observations from a re-analysis of the deposited data

Results flagged for a closer look

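The changes of 2 genes differed between the 5 tissues when breast was tested together with liver, spleen, blood and thymus, in the same limma F-test on within-pair changes. Apoc1 gave an adjusted p of 1.17e-05, with a change of -1.39 ± 0.19 for breast, 0.04 ± 0.08 for liver, 0.10 ± 0.10 for spleen, -0.73 ± 0.44 for blood and 0.46 ± 0.25 for thymus. Lcat gave an adjusted p of 0.0347, with a change of -0.32 ± 0.05 for breast, 0.21 ± 0.21 for liver, 0.09 ± 0.04 for spleen, -0.22 ± 0.15 for blood and -0.06 ± 0.07 for thymus. The liver change of Lcat rested on pair 9. It was -0.0001 ± 0.05 without that pair and 0.03 ± 0.02 without the outlying arrays. The test of 5 tissues was not run without the outlying arrays. In this test 59.2% of all genes were called.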

How the results depend on the processing

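Counts of the 10 genes called depended most on the arrays kept. Counts over all genes also changed in most of these settings, and are given in the next paragraph to be read beside them. In breast 6 were called, 6 or 7 when any 1 pair was left out, 4 in the earlier sample numbers, 6 in the later ones, and 2 of the 2 genes still tested when genes under the tissue median were left out. In liver 0 were called over all pairs, and 6 without outlying arrays, 5 with array weights, 3 in the later sample numbers, 2 without pair 9 and 1 after quantile normalization, with 0 to 2 when any 1 pair was left out. The sign of liver Apoa5 turned from 0.04 over all pairs to -0.20 without outlying arrays, -0.20 with array weights, -0.30 in the later sample numbers and -0.26 without pair 9. Liver Apoe turned to -0.05 without outlying arrays. A sign change was counted only where either value was called. In spleen 1 was called, and 4 without outlying arrays, 3 with array weights, 3 without pairs 15 and 20, 2 after quantile normalization, 0 in the later sample numbers and 0 of the 1 gene tested when genes under the median were left out, with 0 to 2 when any 1 pair was left out. The fits without pair 9, without pairs 15 and 20 and without each pair in turn were chosen after seeing the data. Without the pair as a replicate block the counts were 6 (breast), 0 (liver), 1 (spleen), 0 (blood) and 0 (thymus), the same as with it. Between tissues 0 members were called, against 1 after quantile normalization, 1 with the pair number linked across tissues as a block and 2 with breast added. The relation with the serum amyloid A change was called for 9 members, and for 0 without outlying arrays. The cause was not tested in any of these. Of the alternative values for single genes, 507 kept their side of the threshold without a sign change so counted, 23 passed it newly, 5 no longer passed it and 5 turned. The 507 include values that changed sign where neither value was called.

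Over all genes, liver calls were 1436 higher and 415 lower, against 3385 and 3445 without outlying arrays, 3459 and 3674 with array weights, 2209 and 2120 in the later sample numbers, 1995 and 1398 without pair 9, 85 and 10 in the earlier sample numbers, and 1174 and 739 after quantile normalization. Blood calls were 1576 higher and 776 lower, against 1871 and 2097 without outlying arrays, 2205 and 2980 with array weights, 303 and 14 in the earlier sample numbers, and 1485 and 1170 after quantile normalization. Breast calls were 5456 higher and 5873 lower of 18194 genes, against 3317 and 3737 in the earlier sample numbers and 5097 and 5123 in the later ones. Without genes under the median, when only 9097 genes were tested, they were 3935 and 2996. Spleen calls were 4081 higher and 3327 lower, against 5258 and 4810 without outlying arrays, 5636 and 4923 with array weights, and 5371 and 4847 without pairs 15 and 20. They were 3547 and 4249 after quantile normalization and 2931 and 1828 in the later sample numbers. Of the 9097 genes tested without genes under the median, they were 3032 and 2453. Thymus had 2 calls, against 85 higher and 4 lower with array weights and 12 in the later sample numbers. It had 4 of 9097 genes tested without genes under the median, 1 without the cross-hybridizing probe sets, and 0 without outlying arrays. Members near the floor in breast, spleen and blood limit what those arrays can show.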
